A study of Mus musculus with 2 samples.

Results

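The receptors through which glutamate, GABA and glycine act are built from subunits, and the RNA of these subunits was examined in the germinal zones of the embryonic mouse cortex with and without Rcor2, a member of the CoREST family of transcriptional corepressors. Genes were chosen by symbol: every AMPA, NMDA, kainate, delta and metabotropic glutamate receptor gene, every GABA-A receptor gene and every glycine receptor gene, in all 50 of the 21896 gene symbols measured. Of these, 26 encode glutamate receptors and 24 encode GABA-A or glycine receptors. The choice used names alone, though it was made with earlier results of these data known.

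The ventricular and subventricular zones (VZ–SVZ), where radial glia and intermediate progenitors divide, were dissected from E13.5 cortex of C57/BL6 embryos. One library was made from Rcor2fl/fl tissue, the control, and 1 from Rcor2cko tissue, in which Cre driven by the Nestin promoter removes the floxed exons of Rcor2 in the neural lineage. Both came from crosses of Rcor2fl/+ parents carrying Nestin-Cre, and whether a control embryo carried Cre, or how many embryos went into a library, is not given in the sources used here. Nestin-Cre acts in the whole nervous system, so the deletion was not limited to the cortex.

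AMPA and kainate receptors are fast cation channels gated by glutamate, NMDA receptors are slower channels that also need glycine or D-serine and pass calcium, and metabotropic receptors signal through G proteins. GABA-A and glycine receptors are pentameric chloride channels, usually of the α, β and γ classes for GABA-A and of α and β for glycine. In immature neurons with high internal chloride they depolarize the cell, and in the germinal zones GABA and glutamate are known to affect progenitor division and neuron migration before synapses form.

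Levels are in FPKM, the fragments of a transcript scaled by its length and by the mapped fragments of the library, which allows genes of different length to be compared. Control values came per transcript and Rcor2cko values per gene, so control transcripts were added up within each gene. A change is given as log2 of the ratio of (FPKM + 0.1), with the control as denominator, a scale that shrinks the change of low genes. A gene was called changed past 1.5-fold (0.58 on the log2 scale) if it had at least 1 FPKM in at least 1 library. Where a gene has a single transcript of 1000 nt or more, its number of fragments could be recovered from the FPKM steps, with scaling totals of 18841070 fragments in the control and 25481460 in the Rcor2cko library. From these, 95% exact (Clopper-Pearson) intervals of the log2 fragment ratio were computed, without a pseudocount. These intervals take in counting error alone. Each genotype has 1 library, so genotype could not be tested, and each difference is between these 2 libraries without a replicate check.

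With the control transcripts of each gene summed, the AMPA and kainate subunits that passed the filter lay within 1.5-fold, while subunits of low level moved in both directions. Gabra3 (GABA-A α3), Grid1 (delta 1) and Grin2d (NMDA GluN2D) rose past 1.5-fold, and Gabra4 (GABA-A α4) and Gabrb1 (GABA-A β1) fell past it. Grin2d passed the filter only through the Rcor2cko library and Gabrb1 only through the control, and the fragment interval of Gabrb1 includes no change. The summed α subunit RNA of GABA-A receptors was 15 FPKM in the control and 15.2 FPKM in the Rcor2cko library, but Gabra2 and Gabra4 together made up 70.5% of it in the control and 48.4% in the Rcor2cko library. This pair was joined after the values were seen, by the direction in which both genes differed. In tissue, fewer cells of a type and less RNA per cell cannot be told apart.

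Rcor2 itself was 90.6 FPKM in the control and 55.7 FPKM in the Rcor2cko library (log2 change -0.70, interval -0.78 to -0.63). This value is over the whole gene, of which the deletion removes only some exons. Xist, which is transcribed from an inactive X chromosome, was 177 FPKM in the control and 0.109 FPKM in the Rcor2cko library. The sex of the embryos is not given in the sources used here. With Xist this unlike, a difference in sex between the libraries cannot be told apart from genotype, for Gabra3 or any other gene. X-linked genes that passed the filter had a median log2 change of 0.02 (411 genes) and autosomal genes of -0.03. Of the receptor genes 6 are X-linked, and Gria3, Gabra3 and Glra2 are those that passed the filter.

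Sequence upstream of the start of 5 receptor genes is shown because 4 of them were called changed and Grm2 holds letters of a known repressor element. Each is the 250 bases before the gene start in the RefSeq promoter table, built on GRCm38.p6, placed by exact match in NCBIM37 (mm9) and written 5′ to 3′ along the gene's strand. CG dinucleotides are in capitals in the first 4. In Grm2 the capitals mark TTCAGCACC and GGACAGCNC, the left and right parts of the element bound by REST, a repressor that recruits CoREST proteins.
Gabra3, chrX:69902147-69902396, minus strand: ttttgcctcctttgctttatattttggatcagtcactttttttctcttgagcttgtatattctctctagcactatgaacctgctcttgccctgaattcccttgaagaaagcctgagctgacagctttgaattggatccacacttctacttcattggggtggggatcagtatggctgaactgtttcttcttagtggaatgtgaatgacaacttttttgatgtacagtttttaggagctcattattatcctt
Gabra4, chr5:72049548-72049797, minus strand: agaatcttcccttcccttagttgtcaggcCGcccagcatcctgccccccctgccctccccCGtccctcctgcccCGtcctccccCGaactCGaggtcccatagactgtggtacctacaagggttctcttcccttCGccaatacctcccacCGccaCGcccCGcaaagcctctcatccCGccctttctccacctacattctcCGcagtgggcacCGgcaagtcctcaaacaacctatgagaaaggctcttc
Gabrb1, chr5:72090921-72091170, plus strand: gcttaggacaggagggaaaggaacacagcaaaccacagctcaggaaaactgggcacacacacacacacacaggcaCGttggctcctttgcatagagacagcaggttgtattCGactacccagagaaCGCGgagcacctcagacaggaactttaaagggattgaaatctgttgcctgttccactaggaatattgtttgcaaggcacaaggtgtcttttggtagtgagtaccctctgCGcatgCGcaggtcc
Grin2d, chr7:53122052-53122301, minus strand: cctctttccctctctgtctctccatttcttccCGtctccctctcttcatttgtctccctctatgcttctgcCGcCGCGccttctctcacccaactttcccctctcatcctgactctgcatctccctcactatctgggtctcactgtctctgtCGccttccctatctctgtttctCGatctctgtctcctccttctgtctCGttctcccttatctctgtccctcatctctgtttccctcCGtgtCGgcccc
Grm2, chr9:106558441-106558690, minus strand: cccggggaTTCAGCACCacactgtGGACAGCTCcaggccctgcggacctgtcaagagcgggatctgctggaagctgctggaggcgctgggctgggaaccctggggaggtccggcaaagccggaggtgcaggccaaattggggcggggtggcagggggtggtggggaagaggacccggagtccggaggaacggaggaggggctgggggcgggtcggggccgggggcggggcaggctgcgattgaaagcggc
The table holds a second start for Gabra3, whose window has 0 CG dinucleotides, and for Gabrb1, at chr5:72048910-72049159, whose window has 18. The windows shown are those nearest to the annotated gene start. Those of Gabra3, Gabra4, Gabrb1 and Grin2d hold 0, 12, 6 and 9 CG dinucleotides. Over 32851 windows of the table the median was 6, with quartiles of 2 and 16. The Grin2d window lies 4247 bases from the start of the longest annotated gene model. The table held 34 of the 50 genes, and Grid1, Grin3a and Grm4 were among those without a window.

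Both strands of all windows were searched for 5 motifs. TTCAGCACC is in 99 windows (0.301%) and among the receptor genes only in that of Grm2. GGACAGCNC is in 492 windows (1.5%), including those of Glra2, Gria2 and Grm2. This right part was added after the Grm2 window had been seen. Both parts, counted on either strand, in any order and at any distance, are together in 4 windows (0.0122%). In Grm2 they start at positions -242 and -226 from the gene start with 7 bases between them. Whether REST binds parts at this spacing was not tested. The homeodomain core TAATTA is in 4.84% of windows and in that of Gabrg1, and the E-box CAGCTG is in 13.0% of windows and in those of Gabrp and Glra3. The Gli motif GACCACCCA is in 0.225% of windows and in none of the receptor genes. These are matches of letters only.

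Across the 50 genes the levels spanned from 0 to above 100 FPKM. The summed level was 298 FPKM in the control and 305 FPKM in the Rcor2cko library. By the mean of both libraries, 21 genes reached 1 FPKM, 13 reached 5 FPKM and 6 reached 10 FPKM. The filter passed 23 genes, 13 of glutamate receptors and 10 of GABA-A and glycine receptors. Grin2d passed it only through the Rcor2cko library and Gabrb1 only through the control. Of the 27 genes under the filter, 22 were above 0 in at least 1 library. Gabra6, Gabrp, Gabrr3, Glra1 and Glra4 were listed at 0 in both libraries, and Gabrr1 and Glra3 in the control alone. For the genes among those 5 with recovered fragments, 3 fragments, the limit that a count of 0 allows, correspond to 0.0516 to 0.131 FPKM in the control and 0.0382 to 0.0976 FPKM in the Rcor2cko library.

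**Figure D1:**
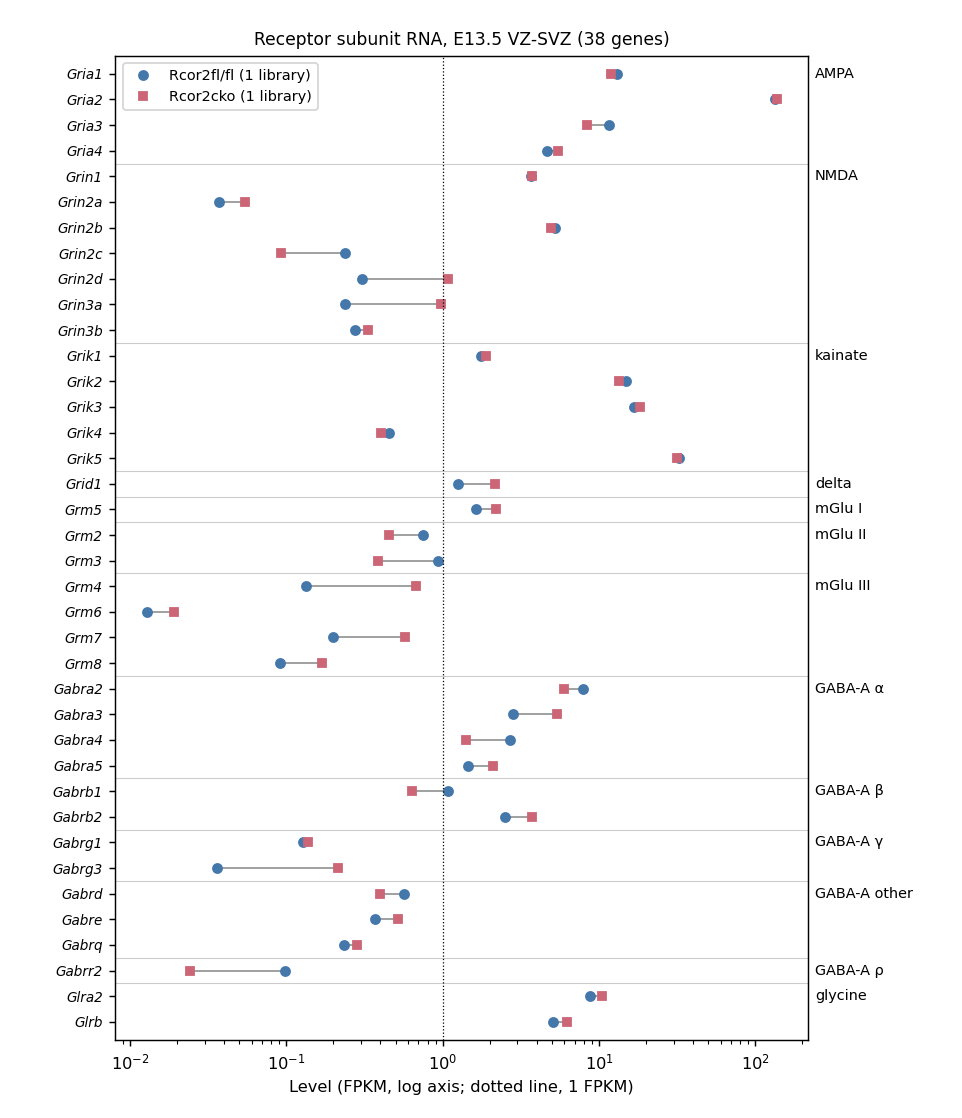
Level in FPKM on a log axis of 38 receptor subunit genes above 0 in both libraries, ordered by receptor class; circles are the Rcor2fl/fl library and squares the Rcor2cko library, 1 each, with no error bars. Gria2 lies above 100 FPKM in both, and many of the wide gaps are at or below 1 FPKM (dotted line).

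Of the 23 genes that passed, 3 were called higher (13.0%) and 2 lower (8.70%), and 18 stayed within 1.5-fold. Over all 11777 genes that passed, 3.79% were called higher and 1.76% lower. Grin2d and Gabrb1 are in these counts, and each passed the filter only through the library in which it was higher. With at least 1 FPKM in both libraries, 2 of 21 receptor genes were called higher and 1 lower. The shares of all 11331 such genes were 2.31% and 1.13%. The median log2 change was 0.11 for the 23 receptor genes (quartiles -0.10 and 0.34), against -0.03 for the 11777 genes (quartiles -0.15 and 0.09). It was 0.03 for glutamate receptor genes and 0.24 for GABA-A and glycine receptor genes. Over all 50 genes, whatever their level, it was 0.10.

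A second call, which needs no level filter, asked for a change past 1.5-fold and a fragment interval without 0. It could be made for 35 receptor genes, of which 7 (20%) were higher and 4 (11.4%) lower, against 4.34% and 1.89% of 12093 genes. Among genes with 20 to 1000 fragments in both libraries together, a band chosen after the values were seen because most of these genes lie in it, 8.51% of 5183 genes were higher and 3.42% lower. All 7 higher and all 4 lower receptor genes lie in that band, which holds 22 of the receptor genes. Outside the rule for named genes, this call added 4 genes on the higher side, among them Grin3a, Grm4 and Grm7, and Grin2c, Grm2 and Grm3 on the lower side, and those named here are described after their values were seen. It did not include Gabrb1.

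**Figure D2:**
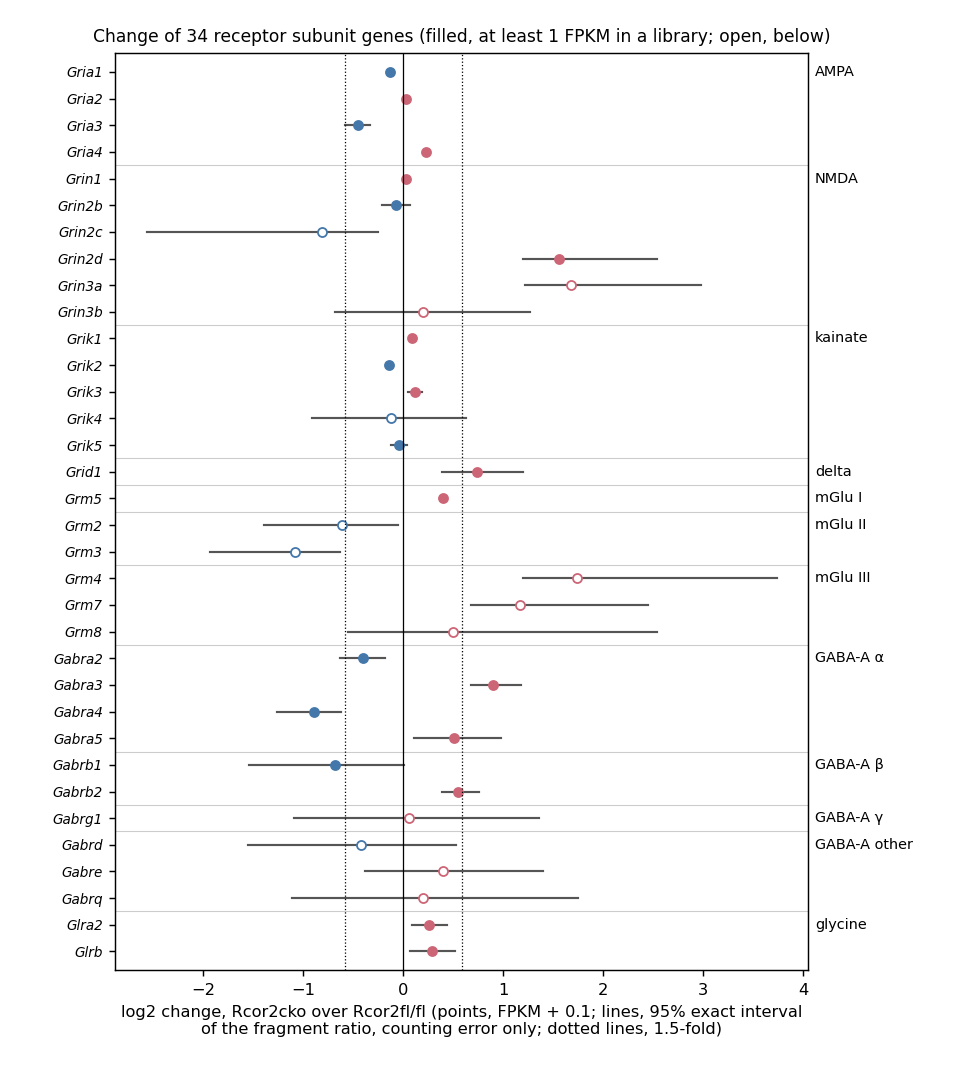
Log2 change of 34 receptor subunit genes, Rcor2cko over Rcor2fl/fl, with 95% exact intervals of the fragment ratio where recovered (genes with recovered fragments are drawn from 20 fragments); filled points had at least 1 FPKM in a library and dotted lines mark 1.5-fold. Intervals widen as fragments become few, and the AMPA and kainate subunits lie between the dotted lines.

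AMPA receptor subunits had the highest summed level of the receptor classes, and Gria2 the highest level of the 50 genes. Gria2 encodes GluA2, which makes the channel nearly impermeable to calcium once its RNA is edited. It was 134 FPKM in the control and 137 FPKM in the Rcor2cko library (log2 change 0.03), rank 300 and 277 of all genes. It made up 82.1% and 84.1% of the summed AMPA subunit RNA, which was 164 and 162 FPKM. In the control the Gria2 RNA was given as 3 transcripts of 65.7, 42.6 and 25.9 FPKM, and with the highest of them alone the log2 change would be 1.05. Gria1 (GluA1) was 13.1 and 12 FPKM (log2 change -0.13). Gria3 (GluA3) was 11.5 and 8.39 FPKM (log2 change -0.45), with 1084 and 1067 recovered fragments and an interval of -0.58 to -0.33. It was thus lower by more than counting error but not past 1.5-fold. Gria4 (GluA4) was 4.68 and 5.48 FPKM (log2 change 0.23, or 1.10 with the highest control transcript alone).

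Kainate receptor subunits followed, with a summed level of 66.4 FPKM in the control and 65.5 FPKM in the Rcor2cko library. Grik5 encodes GluK5, which forms channels only with the GluK1 to GluK3 class of subunits, and was the highest of them at 32.5 and 31.6 FPKM (log2 change -0.04, interval -0.12 to 0.04). Grik3 (GluK3) was 16.8 and 18.2 FPKM (log2 change 0.11, interval 0.04 to 0.19). Grik2 (GluK2) was 14.8 and 13.4 FPKM and Grik1 (GluK1) 1.77 and 1.88 FPKM, with log2 changes of -0.14 and 0.09. Grik4 (GluK4) was under the filter at 0.451 and 0.406 FPKM.

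NMDA receptor subunits summed to 9.95 FPKM in the control and 11.2 FPKM in the Rcor2cko library. Grin1 encodes GluN1, which every NMDA receptor contains, and was 3.67 and 3.74 FPKM (log2 change 0.03, or 1.06 with the highest control transcript alone). Grin2b encodes GluN2B, the main GluN2 subunit of the embryonic forebrain, and was 5.20 and 4.94 FPKM (log2 change -0.07, interval -0.22 to 0.07). These 2 genes were within 1.5-fold. Grin2d encodes GluN2D, which gives channels that close slowly and block weakly with magnesium and which in the cortex is known from interneurons. It lies at chr7:53087253-53126298 on the minus strand. It rose from 0.304 to 1.09 FPKM (log2 change 1.56), on 24 and 116 fragments (interval 1.2 to 2.54). Of the subunits under the filter, Grin3a, whose product GluN3A lowers calcium entry, was 0.236 and 0.973 FPKM, on 14 and 78 fragments (interval 1.21 to 2.98). Grin2c (GluN2C) was 0.237 and 0.0920 FPKM, on 21 and 11 fragments (interval -2.57 to -0.25). Grin2a and Grin3b were at most 0.332 FPKM.

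The makeup of the NMDA class differed between the libraries, with Grin1 and Grin2b within 1.5-fold. Grin2d and Grin3a, joined after their values were seen because both were higher, together were 5.42% of the summed NMDA subunit RNA in the control, on 38 fragments, and 18.4% in the Rcor2cko library, on 194 fragments. The share of Grin2b was 52.2% and 44.0%.

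The delta receptors bind synaptic organizers more than they act as glutamate channels. Grid1 (GluD1), at chr14:35633011-36396565 on the plus strand, rose from 1.25 to 2.15 FPKM (log2 change 0.74), on 76 and 177 fragments (interval 0.39 to 1.2).

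Metabotropic receptor genes were all low, with a summed level of 4.17 FPKM in the control and 5.02 FPKM in the Rcor2cko library. Group I couples to phospholipase C, and its gene Grm5 (mGlu5) was the only metabotropic gene to pass the filter. It was 1.63 and 2.18 FPKM (log2 change 0.40, or 0.68 with the highest control transcript alone). In group II, which lowers cyclic AMP, both genes were lower in the Rcor2cko library. Grm3 (mGlu3) was 0.937 and 0.388 FPKM, on 59 and 33 fragments (interval -1.93 to -0.63). Grm2 (mGlu2), whose window is shown above, was 0.747 and 0.453 FPKM, on 44 and 36 fragments (interval -1.40 to -0.05). In group III, which also lowers cyclic AMP and is mostly presynaptic, Grm4 (mGlu4) was 0.134 and 0.679 FPKM, on 7 and 48 fragments (interval 1.19 to 3.74). Grm7 (mGlu7) was 0.20 and 0.572 FPKM, on 15 and 58 fragments (interval 0.68 to 2.44). Grm8 (mGlu8) was 0.0914 and 0.169 FPKM, with an interval that holds no change (-0.56 to 2.54), and Grm6 was at most 0.0190 FPKM. Group II thus made up 40.3% of the metabotropic RNA in the control and 16.7% in the Rcor2cko library, and Grm4, Grm7 and Grm8, again joined after their values were seen, together 10.2% and 28.3%. These shares rest on 103 and 69 fragments for group II and on 28 and 121 for the 3 group III genes.

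The GABA-A α subunits set a receptor's affinity for GABA and its place on the cell, and 4 of the 6 genes passed the filter. Gabra2 (α2), the most abundant in the control, was 7.92 and 5.98 FPKM (log2 change -0.40), on 328 and 334 fragments (interval -0.63 to -0.18). Gabra3 (α3), at chrX:69678020-69902187 on the minus strand, rose from 2.82 to 5.35 FPKM (log2 change 0.90), on 188 and 481 fragments (interval 0.68 to 1.17). Gabra4 (α4), at chr5:71960973-72049547 on the minus strand, fell from 2.69 to 1.40 FPKM (log2 change -0.89), on 199 and 140 fragments (interval -1.26 to -0.62). The changes of Gabra3 and Gabra4 are thus alike in size and opposite in direction. Gabra5 (α5), known for extrasynaptic receptors, was 1.46 and 2.11 FPKM (log2 change 0.51), on 68 and 133 fragments (interval 0.10 to 0.98).

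As shares of the summed α RNA, Gabra2 was 52.6% in the control and 39.2% in the Rcor2cko library, and Gabra4 17.9% and 9.19%. Gabra3 was 18.8% and 35.1%, and Gabra5 9.67% and 13.8%. Gabra3 and Gabra5, joined in the same way because both were higher, together made up 28.4% and 49.0%.

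**Figure D3:**
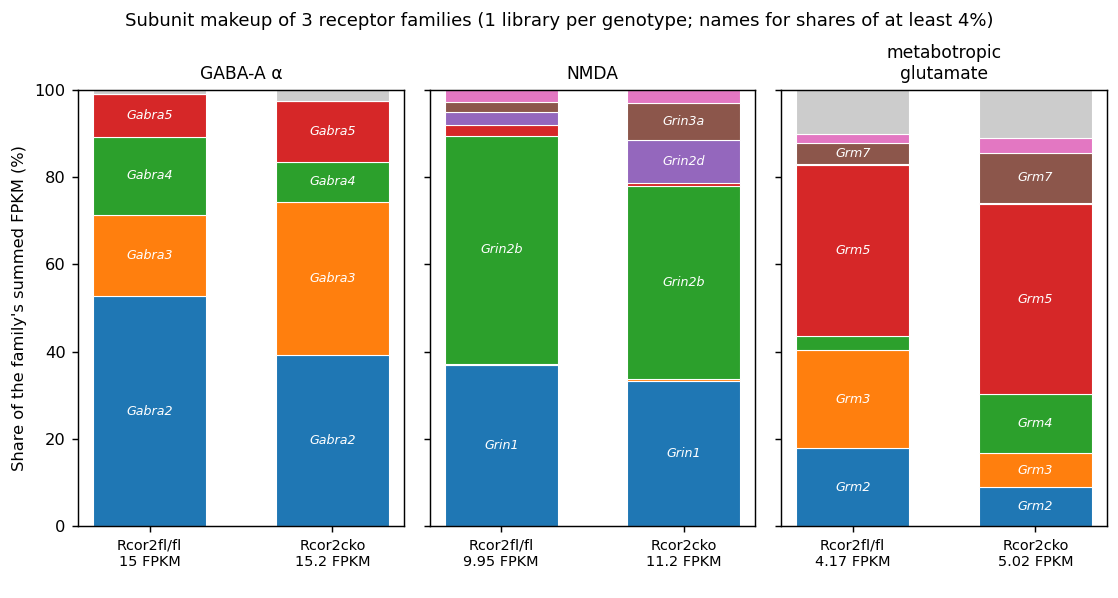
Share of each subunit in the summed FPKM of 3 receptor families, 1 library per genotype, with genes stacked from the bottom, genes not described here in grey at the top, names for shares of at least 4% and the summed FPKM under each bar. In the GABA-A α family Gabra2 and Gabra4 take 70.5% in the control bar and 48.4% in the Rcor2cko bar, with similar sums.

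The β subunits complete the GABA binding site. Gabrb2 (β2) was 2.50 and 3.72 FPKM (log2 change 0.55), on 347 and 696 fragments (interval 0.38 to 0.76), just under the 1.5-fold limit. Gabrb1 (β1), at chr5:72091171-72529628 on the plus strand, fell from 1.08 to 0.639 FPKM (log2 change -0.68). On 34 and 27 fragments its interval, -1.55 to 0.01, includes no change.

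Among the γ subunits, which anchor receptors at synapses, Gabrg1 was 0.128 and 0.137 FPKM, and Gabrg3 rested on 1 and 8 fragments, with an interval of -0.33 to 8.04. Gabrd (δ), Gabre (ε) and Gabrq (θ) stayed at or below 0.567 FPKM in both libraries, and the ρ subunits at or below 0.098 FPKM.

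Of the glycine receptor genes, Glra2, which encodes the α2 subunit of embryonic glycine receptors, was 8.72 and 10.5 FPKM (log2 change 0.26), on 418 and 676 fragments (interval 0.08 to 0.44). Glrb, the β subunit that binds gephyrin, was 5.07 and 6.20 FPKM (log2 change 0.28), on 267 and 440 fragments (interval 0.07 to 0.51). Both were higher by more than counting error and within 1.5-fold. Glra3 was listed at 0 and at 0.0308 FPKM.

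Many GABA-A genes lie in clusters, and the values were laid out along them, a grouping chosen after the values were seen. The clusters on chromosomes 5 and X, which hold the called genes, are given here. Those on chromosomes 7 and 11, which hold Gabra5 and Gabrb2, are not. At chr5:71142286-72529628 lie Gabrg1, Gabra2, Gabra4 and Gabrb1, and Gabra2 and Gabra4 were lower in the Rcor2cko library. Gabrb1 was lower too, but it passed the filter only through the control and its interval includes no change, and Gabrg1 was under the filter. Within 1 Mb of this cluster 4 of 14 other genes passed the filter, none past 1.5-fold, with log2 changes of -0.16 to 0.08. Over all genes that passed, 3.79% were called higher and 1.76% lower, so 4 genes are too few to compare with the cluster. In the chromosome X cluster at chrX:69501338-70087941 Gabra3 was the only gene of 3 to pass, and of 22 other genes passing within 1 Mb 1 was called higher and 1 lower.

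**Figure D4:**
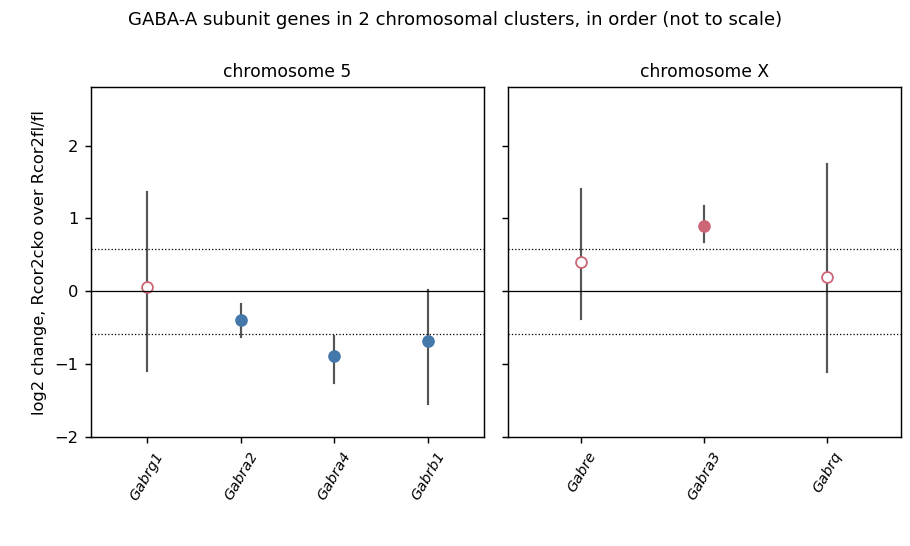
Log2 change, Rcor2cko over Rcor2fl/fl, of GABA-A subunit genes in 2 chromosomal clusters, in order along the chromosome and not to scale; lines are 95% exact fragment intervals, dotted lines are 1.5-fold and open points are below 1 FPKM in both libraries. Gabra2, Gabra4 and Gabrb1 on chromosome 5 lie below 0, and Gabra3 on chromosome X lies above the upper dotted line.

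Genes that work with these receptors were taken from lists by function. The auxiliary subunits of AMPA and kainate receptors, which set gating and trafficking, all passed the filter (15 of 15), with a median log2 change of -0.03. Of these, 2 fell and none rose past 1.5-fold. Cnih3 fell from 11.6 to 6.94 FPKM (log2 change -0.73), and Cacng5, which passed only through the control, from 1.36 to 0.803 FPKM (log2 change -0.69). Neither gene has recovered fragments, so counting error could not be given for these falls. The highest of the list were Cnih2 at 72.4 and 62.5 FPKM, Cacng7 at 57.0 and 56.8 FPKM and Olfm1 at 47.0 and 56.5 FPKM. Of 17 glutamate receptor scaffold genes, led by Dlgap4 at 59.0 and 59.3 FPKM, Dlg4 at 47.6 and 44.9 FPKM and Dlg3 at 20.3 and 22.7 FPKM, none passed 1.5-fold (median 0.01). Of 13 GABA-A and glycine receptor scaffold and trafficking genes, led by Gabarap at 149 and 131 FPKM, Gabarapl2 at 103 and 107 FPKM and Gabarapl1 at 47.9 and 45.4 FPKM, none did either (median -0.08).

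Of 8 genes for transmitter synthesis and vesicular transport that passed, 3 rose and none fell (median 0.34). Gad2, a GABA-synthesizing enzyme, rose from 2.33 to 8.10 FPKM (log2 change 1.76). Gad1, the other such enzyme, rose from 4.65 to 10.7 FPKM (log2 change 1.18). Slc32a1, the vesicular GABA transporter, rose from 1.95 to 4.31 FPKM (log2 change 1.10). Glul and Slc17a7, among the highest of the list, stayed within 1.5-fold. Of 7 uptake genes that passed, 2 rose (median 0.18), among them the GABA transporter Slc6a11 from 0.809 to 1.85 FPKM, which passed only through the Rcor2cko library, and the highest, Slc1a3 and Slc6a6, stayed within 1.5-fold. Of 5 chloride transport genes that passed, 1 rose (median -0.12). This was Slc12a5, which encodes the chloride exporter KCC2, from 0.947 to 1.94 FPKM, and it too passed the filter only through the Rcor2cko library. The importer NKCC1, encoded by Slc12a2, was 10.2 and 9.39 FPKM and Slc12a7 was 9.72 and 8.81 FPKM.

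Markers of cell types that the dissection could hold were also compared between the libraries. Markers of ventral progenitors and GABAergic neurons had a summed level of 29.5 and 71.5 FPKM, with 2 of 10 at 0 in the control. In both libraries 7 reached 1 FPKM, of which 6 were called higher and none lower, and the other 3 passed the filter only through the Rcor2cko library. Some, such as Gad1, Gad2 and Slc32a1, are also on the list of transmitter genes. Cajal-Retzius markers summed to 52.3 and 24.1 FPKM, and of the 4 that reached 1 FPKM in each library 3 were called lower and none higher. Choroid plexus markers summed to 0.897 and 61.4 FPKM, with 2 of 6 at 0 in the control, and the 2 that passed the filter did so only through the Rcor2cko library. A single gene made up most of this sum in the Rcor2cko library. Oligodendrocyte precursor markers summed to 1.48 and 4.48 FPKM. Of these 5, 3 passed only through the Rcor2cko library, and of the others Sox10 was 0.0843 and 0.125 FPKM and Cspg4 was 0.703 and 0.540 FPKM. Of 4 microglia markers (sum 8.10 and 12.2 FPKM) 2 were called higher. Of the markers of neurons (sum 958 and 908 FPKM), radial glia (873 and 1021 FPKM), intermediate progenitors (234 and 224 FPKM), endothelium and pericytes (26.6 and 28.9 FPKM) and erythroid cells (41.8 and 38.8 FPKM), none was called in either direction. The radial glia sum was higher in the Rcor2cko library, but the median log2 change of its 8 markers was -0.08. The markers of radial glia and intermediate progenitors, which define the labelled tissue, were thus present in both libraries. Those of neurons were high in both too, so the receptor levels cannot be assigned to progenitors alone. The part of the other cell types in the receptor values was not tested.

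**Figure D5:**
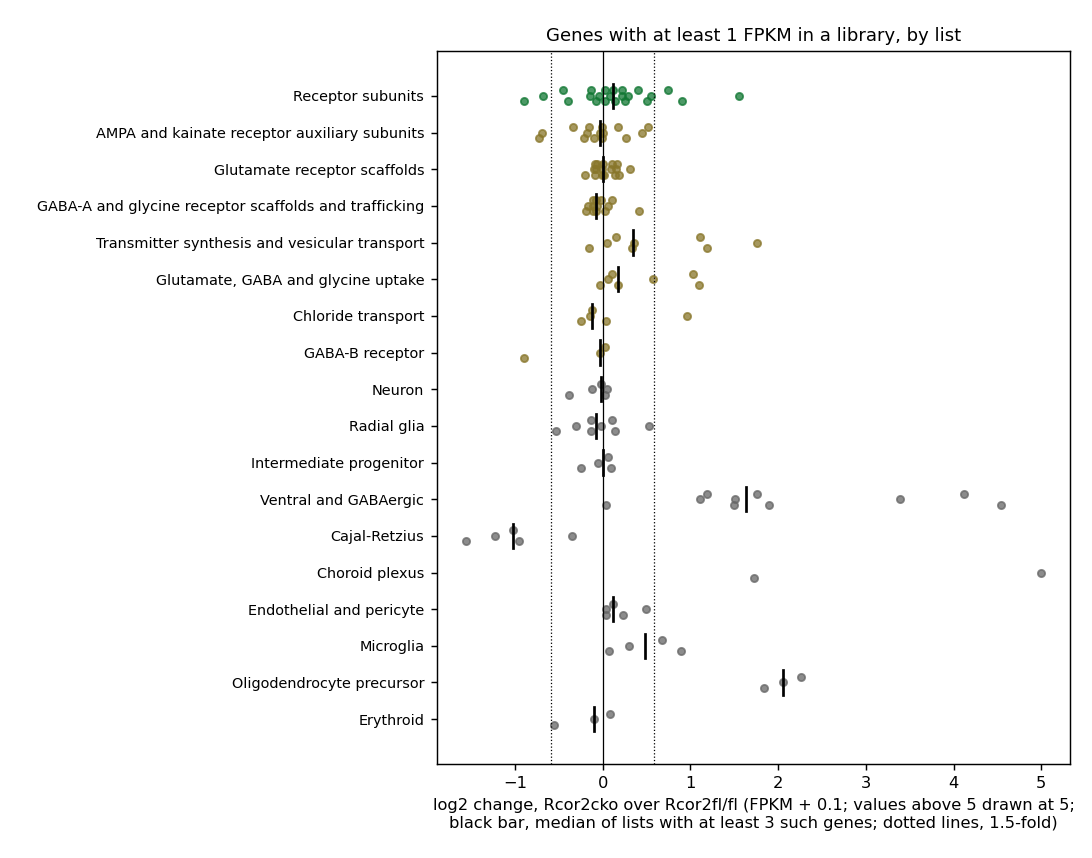
Log2 change, Rcor2cko over Rcor2fl/fl, of genes with at least 1 FPKM in a library, 1 point per gene, for the receptor subunits, related lists and cell type markers; black bars are medians of lists with at least 3 such genes, dotted lines are 1.5-fold and values above 5 are drawn at 5. Scaffold genes lie between the dotted lines, and 9 of 10 ventral and GABAergic markers lie to the right of them, 3 of which passed only through the Rcor2cko library.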

How the data were processed

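RNA of dissected E13.5 VZ–SVZ was sequenced in 1 Rcor2fl/fl and 1 Rcor2cko library with a stranded mRNA kit. The authors mapped reads with TopHat to mm9 and deposited FPKM values with 95% bounds from Cufflinks. The submitters' processing notes name TopHat 1.3.3 and Cufflinks 1.2.0, while the study's methods name another TopHat version. No strand setting is given, so reads of antisense neighbours could be included. The control has 27641 transcript entries and the Rcor2cko library 21896 gene entries, which may differ in how multi-transcript genes were estimated. The status was other than OK in 281 and 93 entries, none of them of receptor genes.

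Transcripts were summed per gene and no further normalization was applied. Fragments were recovered for 39 receptor genes with 1 transcript, using a length offset of 194 and 201 nt. Of values up to 100 fragments, 99.3% of 4019 and 99.4% of 3961 came out within 0.1 of a whole number. At 2000 nt, 3 fragments correspond to 0.0882 and 0.0654 FPKM. The steps were tested on simulated data.

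Receptor genes were named if their mean was at least 1 FPKM or if they passed the filter and 1.5-fold. List genes were named if among the 3 highest or past 1.5-fold. Marker lists are given by counts and sums, with a median for radial glia and the values of Sox10 and Cspg4. The genes, lists and tests were chosen with earlier results of these data known. Positions are from GENCODE vM1 on NCBIM37, counted from 1. Alternatives were other pseudocounts, scalings, filters, fold limits, interval rules and 1 entry per gene. The values of some genes are not reported here, although counts and sums include them. E15.5 was not analysed here. Python 3.11.15, numpy 2.4.6, pandas 2.3.3, scipy 1.17.1 and matplotlib 3.10.9 were used.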

Additional observations from a re-analysis of the deposited data

How the results depend on the processing

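No paired analysis was possible because each genotype has 1 library, and none could be left out. The count of receptor genes called higher, 3 as reported, was 8 with no filter, 8 with the highest entry per gene, 1 at 2-fold and 0 with a mean of at least 5 FPKM. Over all genes 5.88%, 10.3%, 1.38% and 1.19% were higher under these settings, against 3.79% as reported. The count called lower, 2 as reported, was 6 with no filter, 4 with a mean of at least 0.5 FPKM, 1 with a pseudocount of 1, 1 with at least 1 FPKM in both libraries, 1 where FPKM intervals must not overlap, 1 by the exact fragment interval, 0 at 2-fold and 0 with a mean of at least 5 FPKM. Over all genes the share lower was 3.07% with no filter, 2.15% with a mean of at least 0.5 FPKM and 0.526% to 1.5% under the others with a count below 2, against 1.76% as reported. The median log2 change of glutamate receptor genes, 0.03 as reported, was 0.39 with the highest entry per gene, which lowers the control values only, since those alone are given per transcript. Gria2 (1.05), Gria4 (1.10) and Grin1 (1.06) then passed 2-fold, and Grm5 (0.68) passed 1.5-fold. Gabrb1 (-0.35) and Grid1 (0.49) were within 1.5-fold with a pseudocount of 1. Over the alternatives that gave a value Gabra3 ranged from 0.73 to 0.93, Gabra4 from -0.96 to -0.62 and Grin2d from 0.68 to 1.84. The glutamate receptor median was -0.06 with a mean of at least 5 FPKM, the only median to change sign, and Grik1 changed sign under quantile normalization, the only named receptor gene to do so. With autosomal genes only, an alternative chosen after the data were seen, 2 were higher and 2 lower. Genes on few fragments, such as Gabrb1, Grm2 and Gabrg3, are limited by depth.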

Other observations

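GABA-B receptors are the metabotropic receptors for GABA, and their principal subunits differed little between the libraries. Gabbr1 was 41.9 FPKM in the control and 40.9 FPKM in the Rcor2cko library, on 3385 and 4469 fragments (95% exact interval of the log2 ratio -0.10 to 0.03). Gabbr2 was 2.0 and 2.04 FPKM. Kctd12, an auxiliary subunit that speeds desensitization, fell from 20.7 to 11 FPKM (log2 change -0.90), on 2282 and 1647 fragments (interval -1.0 to -0.81). Kctd8, another auxiliary subunit, was under the filter at 0.965 and 0.292 FPKM, on 49 and 20 fragments (interval -2.55 to -0.95), and is named after its values were seen. Kctd12b, also under the filter, went the other way, at 0.450 and 0.735 FPKM on 39 and 86 fragments (interval 0.15 to 1.29). Kctd16 was 0.136 and 0.0674 FPKM.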
